A study of Mus musculus with 15 samples.

Results

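The interaction of vorinostat and anti-PD1 is the part of the response to both agents that the responses to each agent do not add up to. It was computed for each gene as the mean log2(TPM + 1) of the combination group, minus that of the anti-PD1 group, minus that of the vorinostat group, plus that of the control group. A positive value means that the combination lay above the sum of the single-agent differences from control, and a negative value that it lay below. Of 38172 gene symbols listed, 19390 had at least 1 TPM (a transcript level scaled to gene length and to the library total) in at least 3 of the 15 libraries, and these are the genes described. All 15 libraries of the study entered the calculation.

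The tumours were low-grade gliomas of mouse brain that carried a mutant IDH. They were raised by stereotactic injection of DF-1 cells, a chicken fibroblast line that sheds avian retrovirus, into mice with the viral receptor TVA under the nestin promoter. The injected cells were an equal mixture of DF-1 cells expressing IDH R132H and DF-1 cells expressing the growth factor PDGFB, so every group shared both genes. Mice were imaged on day 28, randomised, treated for 9 days and sampled on day 37. The control group (3 libraries) had daily placebo, 100 µl of the DMSO, PEG-300 and Tween-20 vehicle. The anti-PD1 group (4 libraries) had 1 mg of antibody in 100 µl PBS 2 times a week, the vorinostat group (4) had 1 mg in 100 µl of vehicle daily, and the combination group (4) had both agents, all by intraperitoneal injection. No isotype antibody for the controls, no age and no strain beyond the transgene is given. No daily vehicle is named for the anti-PD1 group, whereas the control and vorinostat groups had it, as did the vorinostat of the combination. An effect of the vehicle or of daily injection would not cancel in the interaction. It cannot be told apart from a departure of the agents from their sum. Whether each replicate came from its own animal is not labelled, so the tests weigh effects against the variation among these samples alone.

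Anti-PD1 is an antibody that blocks the inhibitory receptor PD-1 on T cells, which frees them to respond to antigen shown on MHC molecules. Vorinostat inhibits histone deacetylases, enzymes that remove acetyl groups from histones and other proteins, and such inhibitors are known to alter transcription, to slow the cell cycle and to raise antigen presentation in some tumour cells. Gliomas with mutant IDH are known for few infiltrating T cells, which is a background reason to pair both agents.

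The libraries held 83195717 to 165069331 reads assigned to genes, recovered from the TPM values. Each is a piece of tumour and not a pure cell population. The glioma genes Olig2 and Pdgfra were at 214 to 1760 and 52.6 to 621 TPM, but 19 pan-neuronal genes summed to 576 to 2944 TPM across the same libraries. In bulk tissue, fewer cells of a type and less RNA per cell cannot be told apart. Neuron marker levels differed between groups: the mean log2(TPM + 1) of the pan-neuronal genes was 4.76 to 5.31 in controls, 5.38 to 6.34 with anti-PD1, 4.15 to 5.82 with vorinostat and 4.89 to 5.59 with the combination. Every anti-PD1 library lay above every control, so the single-agent anti-PD1 difference, on which the interaction rests, moves with neuron marker levels. Combination replicate 2 stood apart with 238 TPM of Olig2, against 787 to 965 in the other combination libraries. The mitosis and glioma lineage results are given with and without it.

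**Figure D1:**
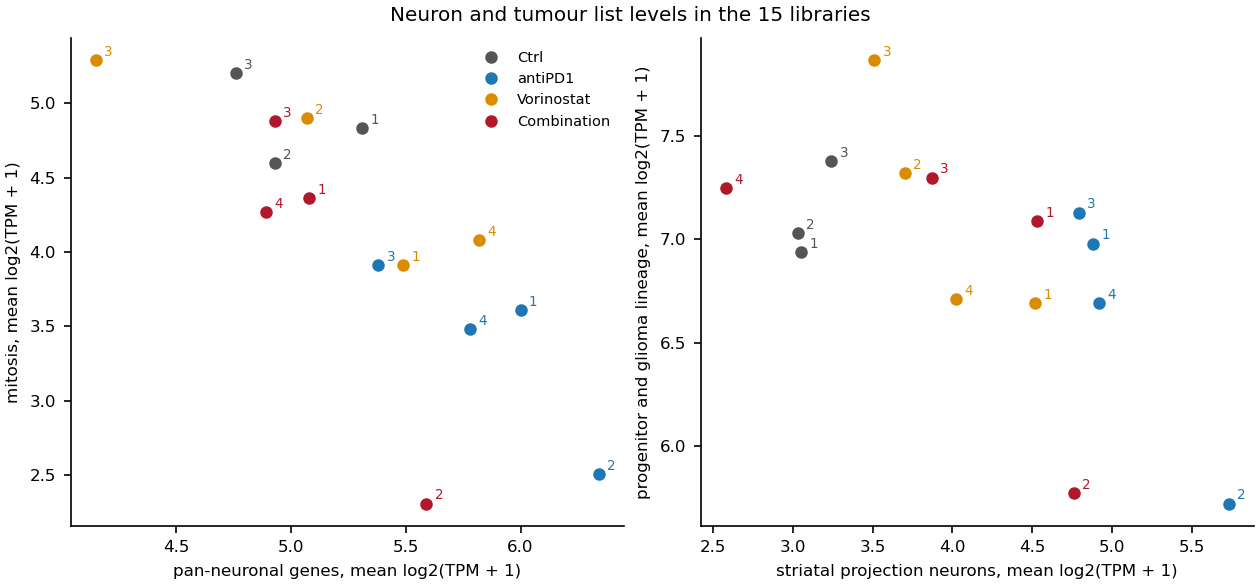
Mean log2(TPM + 1) of the pan-neuronal list against the mitosis list (left) and of the striatal projection neuron list against the progenitor and glioma lineage list (right), with 1 point per library numbered by replicate and coloured by group. The anti-PD1 libraries lie at 5.38 to 6.34 on the pan-neuronal axis, to the right of every control (4.76 to 5.31), and combination replicate 2 has the lowest mitosis mean, 2.31.

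Few genes passed the adjusted threshold for a departure from the sum of the single agents. Limma's test called 2 of 19390 genes, both above the sum (0.0103% of the genes tested, in either direction and above the sum alike) and 0 below it (0%), after Benjamini-Hochberg adjustment at 0.05. Before adjustment, 2406 genes above the sum (12.4%) and 776 below it (4.0%) had p under 0.05. These are 3182 genes in all, where about 970 would have such a p if no gene departed. Genes are not independent, so the excess gives no count of true departures. The median interaction was 0.18, with 80% of genes between the 10th percentile of -0.52 and the 90th of 0.68, and the median SE was 0.26. With median-of-ratios scaling the median was 0.01 and the unadjusted counts were 1048 above and 1633 below, so that 39.1% lay above in place of 75.6%. Which side held more genes thus differed between scalings, and the values below are to be read against a median of 0.18.

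Precision varied between genes. The median gene had a 95% interval of 0.57 to either side of its estimate. For 10799 genes (55.7%) the whole interval lay between -1 and 1, and for 3361 genes (17.3%) the interval reached 1 or more to either side. Absence of a call thus does not show additivity for either set, and an interval between -1 and 1 still allows smaller departures.

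**Figure D2:**
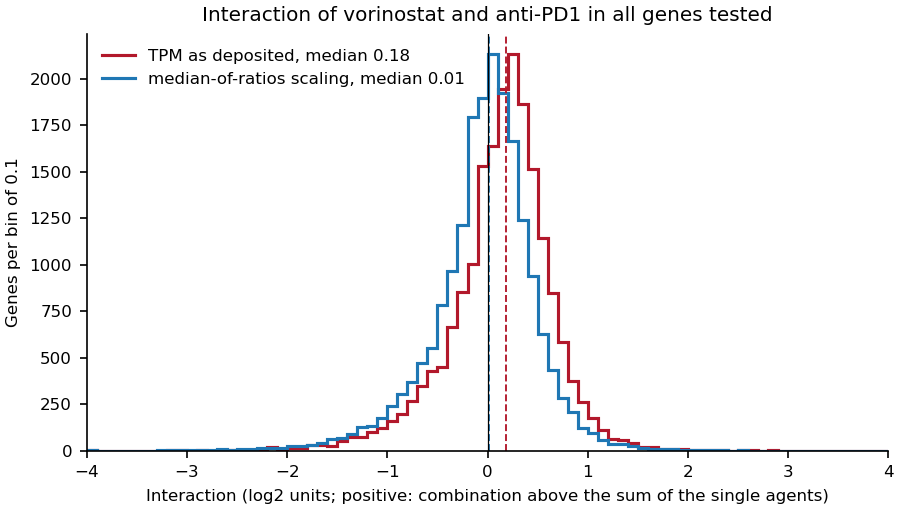
Number of genes per bin of 0.1 (y) against the interaction in log2 units (x) for all 19390 genes, from the TPM as deposited and after median-of-ratios scaling, with dashed lines at the medians of 0.18 and 0.01. Rescaling shifts the whole distribution down and leaves its shape nearly as it was.

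Both genes that passed are little-studied gene models, named here after their values were seen. The first, 2700046G09Rik, is a long noncoding RNA gene of 1975 bases on the plus strand of chromosome 19 (32389216 to 32391190, build GRCm38), annotated as transcribed from a bidirectional promoter. Its first 499 bases overlap Sgms1 on the opposite strand, and the library kit does not mark strand, so reads from the shared stretch cannot be assigned to either gene. Its level was 8.24, 9.98 and 8.26 TPM in the controls, 3.95, 5.16, 4.44 and 4.18 with anti-PD1, 6.80, 5.75, 7.34 and 6.18 with vorinostat, and 8.89, 8.62, 7.41 and 7.72 with the combination. The anti-PD1 libraries were the lowest and overlapped no other group, while the combination libraries lay in or just under the control range and above every vorinostat library. The sum of the single-agent differences would have given 3.14 TPM.

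The interaction of 2700046G09Rik was 1.14 (SE 0.15, 95% interval 0.82 to 1.47, adjusted p = 0.0348 in limma's test), and all 4 combination libraries were above the sum, by 1.02 to 1.26. The anti-PD1 difference was -0.86 (SE 0.11) without vorinostat and 0.29 (SE 0.10) with it. Its overlapping neighbour Sgms1, which encodes a sphingomyelin synthase, was at 1.24 to 1.85 TPM in all libraries with an adjusted interaction p of 0.529 in the same test. Sgms1 nevertheless held 4344 to 6350 reads per library, against 84 to 313 for 2700046G09Rik. How many of the 84 to 313 came from Sgms1 was not tested. On the log scale the interaction of 2700046G09Rik stayed between 0.96 and 1.30 in every alternative run. Its adjusted p ran from 0.0138 to 0.256 in limma's test, and it was 0.186 with median-of-ratios scaling.

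The stretch around the start of 2700046G09Rik is shown because it belongs to the called gene with a mean of at least 5 TPM, which is annotated with a bidirectional promoter. It is the plus strand of chr19:32388966-32389265 (RefSeq, GRCm38.p6), 250 bases before to 50 after the start, and capitals mark its 1 CCAAT box, which begins 12 bases before the start.

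2700046G09Rik: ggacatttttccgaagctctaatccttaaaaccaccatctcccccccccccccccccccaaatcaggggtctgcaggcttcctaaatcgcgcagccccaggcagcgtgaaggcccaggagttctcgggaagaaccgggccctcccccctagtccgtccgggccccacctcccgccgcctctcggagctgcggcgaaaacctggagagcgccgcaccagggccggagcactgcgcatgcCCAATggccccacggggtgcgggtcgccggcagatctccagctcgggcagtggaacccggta

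The window held 67.7% G and C and 23 CpG dinucleotides. A search of both strands found 1 CCAAT, which 37.9% of 27025 RefSeq mouse promoter windows of the same length, those of chromosome 18 left out, also hold. No GC box (GGGCGG, in 35.9% of windows), TATA box (TATAAA, 14.2%) or E-box (CACGTG, 7.24%) was among these letters. The motifs do not overlap each other.

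The second gene, Gm38061, is a 365-base gene model that still awaits experimental proof (chromosome 11, 31698648 to 31699012, plus strand, GRCm38) that lies 26763 bases from its nearest gene, Bod1. It was at 5.60, 5.45 and 5.71 TPM in the controls, from 22, 24 and 40 reads. In the treated groups 1 anti-PD1 library and 1 vorinostat library held 1 read each (0.233 and 0.203 TPM) and the other 10 libraries held 0. The 2 single-agent differences, -2.64 and -2.65, add to a level of -2.58 on the log2(TPM + 1) scale, below the 0 that no library can pass, and the interaction of 2.58 (SE 0.17, adjusted p = 1.34e-05 in limma's test) is the distance from that sum to 0 in all 4 combination libraries. This fitted value depends on the added 1 TPM and is no bound, and the adjusted p was 0.159 with 0.1 TPM added. A sum below 0 occurred in 157 of the genes tested.

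Among protein-coding and other established genes of at least 5 TPM none passed, so the 8 of smallest p in each direction are given as values. Above the sum these were Wnt5a, Elovl2, Tmem203, Dut, Ccne1, Gas6, Neat1 and Tradd, with interactions of 0.58 to 1.51 and adjusted p from 0.124 to 0.183 in limma's test. For each of them all 4 combination libraries lay above the sum, which adds no support because small p in the same libraries picked these genes. In 7 of the 8, all but Tmem203, the anti-PD1 difference was -1.01 to -0.40 without vorinostat and 0.04 to 0.50 with it.

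Neat1, a nuclear long noncoding RNA that builds paraspeckles, had the largest value of the 8, 1.51 (SE 0.30). It was at 95.9, 80.0 and 106 TPM in controls, 46.0, 47.0, 45.6 and 44.6 with anti-PD1, 59.3, 65.2, 89.6 and 110 with vorinostat, and 83.8, 106, 161 and 108 with the combination. The 4 anti-PD1 libraries were tightly grouped under all others, and the combination libraries overlapped the controls. Wnt5a, a ligand of the noncanonical Wnt pathway, was at 6.52 to 8.66 TPM in controls, 3.43 to 4.63 with anti-PD1, 4.74 to 5.91 with vorinostat and 6.39 to 8.68 with the combination, an interaction of 1.11 (SE 0.17).

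Ccne1 and Dut serve entry into and fidelity of DNA synthesis, as cyclin E1 and as the enzyme that clears dUTP. Ccne1 was at 9.48 to 10.9 TPM in controls, 6.97 to 7.76 with anti-PD1, 7.38 to 9.46 with vorinostat and 9.98 to 13.7 with the combination, and its interaction was 0.82 (SE 0.15). Dut had an interaction of 0.77 (SE 0.14), with 21.5 to 26.0 TPM in the combination against 14.4 to 17.3 with anti-PD1. In both genes the combination libraries overlapped no single-agent library.

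Tmem203, a membrane protein of the endoplasmic reticulum, differed from the other 7 in its pattern. It was at 41.3 to 44.0 TPM in controls, 34.7 to 44.0 with anti-PD1 and 34.3 to 39.2 with vorinostat, and at 57.3, 66.6, 55.1 and 64.6 with the combination, so that only the combination stood apart from the rest. Its interaction was 0.79 (SE 0.14, 95% interval 0.49 to 1.08). Elovl2, an elongase of long polyunsaturated fatty acids, had 0.72 (SE 0.12). Gas6, a ligand of the TAM receptors that serve clearance of dead cells, had 0.58 (SE 0.12), and Tradd, an adaptor of the TNF receptor, had 0.83 (SE 0.17).

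Below the sum the 8 genes of smallest p were Rap1gap, Penk, Mchr1, Pdyn, Crym, Drd1, Arpp21 and Dpy19l3, with interactions of -2.82 to -0.59 and adjusted p from 0.124 to 0.231 in limma's test. All 4 combination libraries lay below the sum in each of these 8 genes, which again adds no support after a choice by p. Several mark neurons of the striatum, a deep forebrain region. Penk, which encodes the opioid precursor proenkephalin, was at 63.0, 50.0 and 99.5 TPM in controls, 638, 708, 364 and 588 with anti-PD1, 237, 125, 137 and 176 with vorinostat, and 299, 279, 165 and 88.8 with the combination. The anti-PD1 libraries were the highest and overlapped no other group, whereas the combination libraries ran from below the lowest vorinostat library to above the highest, with 1 of the 4 inside that range. The sum was 1330 TPM and the interaction -2.82 (SE 0.54).

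The dopamine receptor gene Drd1 had an interaction of -2.63 (SE 0.61) and the opioid precursor gene Pdyn -2.58 (SE 0.55). Drd1 was at 20.7 to 32.4 TPM in controls, 121 to 222 with anti-PD1, 51.1 to 89.3 with vorinostat and 20.5 to 111 with the combination. Crym, a thyroid hormone-binding protein, had -2.65 (SE 0.60), Arpp21, a cAMP-regulated phosphoprotein, -1.89 (SE 0.44), and Mchr1, a receptor for melanin-concentrating hormone, -1.65 (SE 0.34). Rap1gap, which switches off the small GTPase Rap1, had the smallest p of the 8 with an interaction of -0.82 (SE 0.13). It was at 18.8 to 19.4 TPM in controls, 29.5 to 34.1 with anti-PD1, 20.6 to 23.1 with vorinostat and 18.3 to 23.5 with the combination. Dpy19l3, a tryptophan C-mannosyltransferase in human cells, had -0.59 (SE 0.14).

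**Figure D3:**
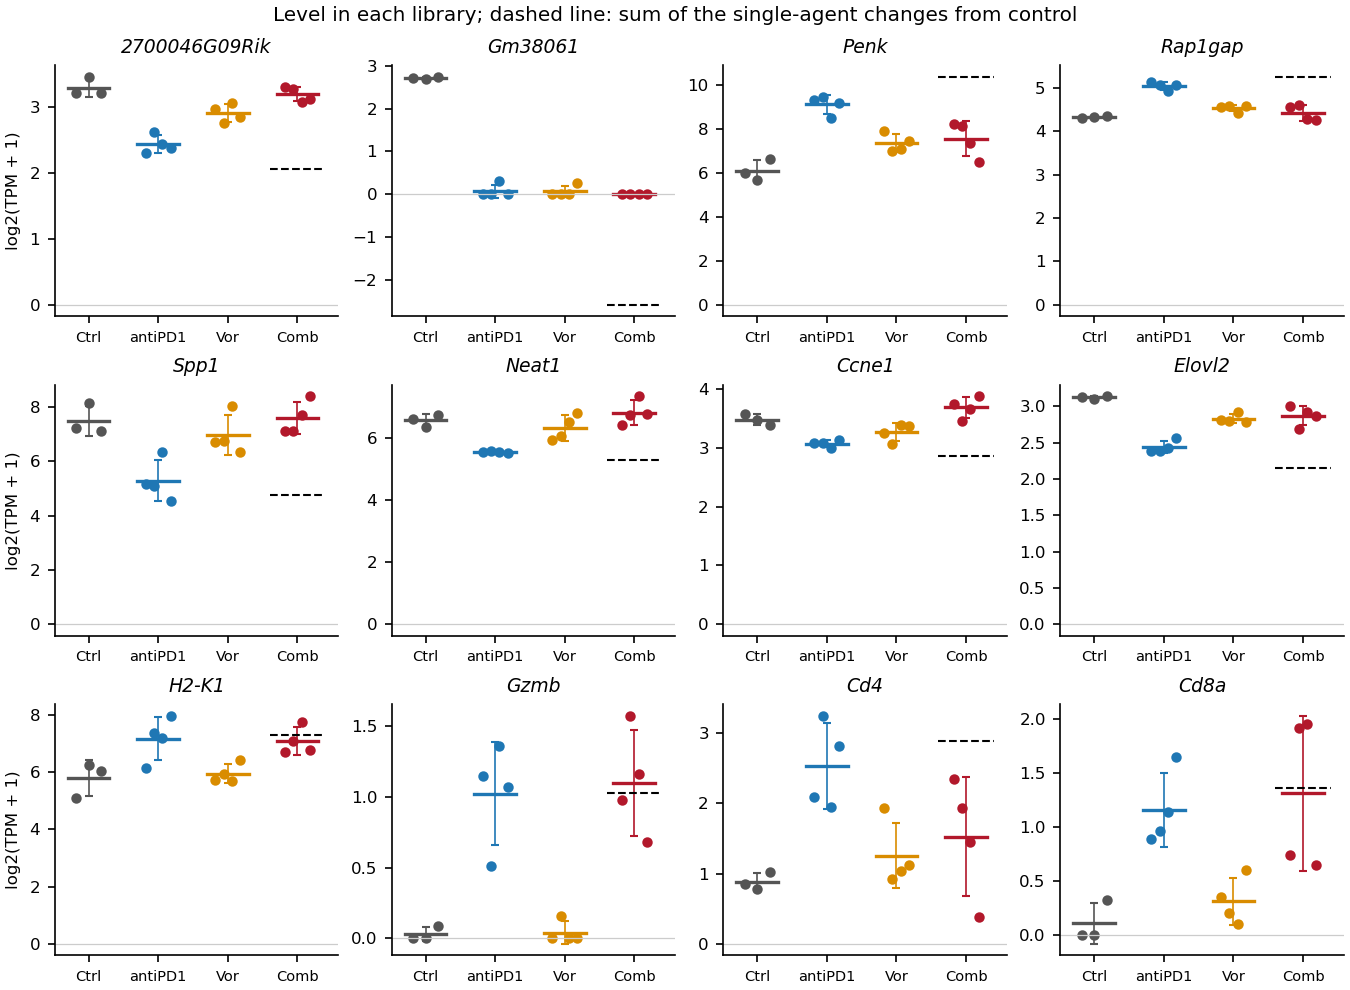
log2(TPM + 1) in every library for 12 genes, with 1 point per library, a bar at each group mean and whiskers of 1 SD. The dashed line in the combination column is the sum of the single-agent differences; the combination lies above it in 2700046G09Rik, Spp1, Neat1, Ccne1 and Elovl2, below it in Penk, Rap1gap and Cd4, and around it in H2-K1, Gzmb and Cd8a, and for Gm38061 the sum is at -2.58.

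Across all genes the anti-PD1 difference was smaller in the presence of vorinostat. Its SD over 19390 genes was 0.53 without vorinostat (anti-PD1 minus control) and 0.28 with it (combination minus vorinostat), and it was the larger of the pair without vorinostat in 77.6% of genes. These 2 differences share no library, and their correlation across genes was 0.27. The vorinostat difference had the opposite order, with an SD of 0.25 alone and 0.40 on top of anti-PD1, and a correlation of -0.29. Genes are not independent replicates, and the neuron marker levels given above move with the same groups; its part in these values was not tested.

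**Figure D4:**
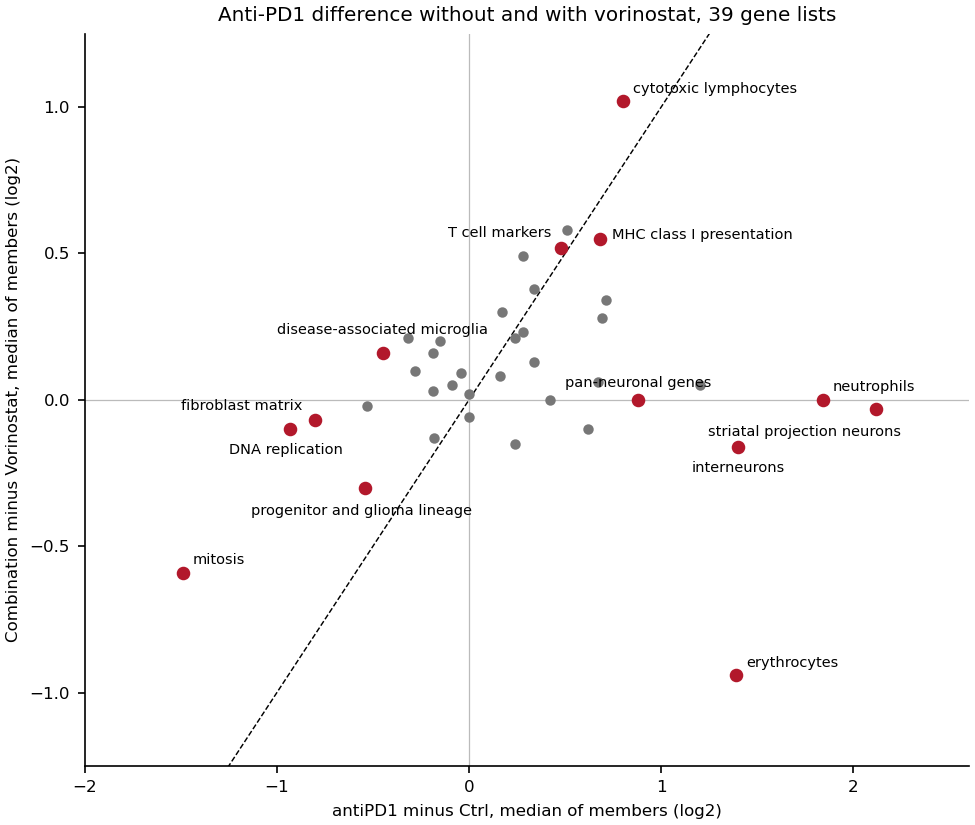
Median anti-PD1 difference of the tested members of 39 gene lists without vorinostat (anti-PD1 minus control, x) and with it (combination minus vorinostat, y), in log2 units, with the dashed line where both are equal. Striatal projection neurons lie at 2.12 and -0.03, mitosis at -1.49 and -0.59, and cytotoxic lymphocytes at 0.80 and 1.02.

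Neuron genes made up the lists farthest below the sum apart from blood cells. Of 21 markers of striatal projection neurons, the inhibitory output cells of the striatum, 20 were tested, and all 20 had a negative interaction, with a median of -2.16 against 0.18 over all genes. An unadjusted p under 0.05 was reached below the sum by 19 of them, where the background is 4.0%, and 0 passed the adjusted threshold. The same list summed to 301 to 399 TPM in controls, 1535 to 3323 with anti-PD1, 529 to 1156 with vorinostat and 254 to 1499 with the combination, so the anti-PD1 and control libraries did not overlap. The median was -2.34 with median-of-ratios scaling, -1.52 without combination replicate 4, and -1.38 with the pan-neuronal mean as a covariate.

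Broader neuron lists were less far below. The 19 pan-neuronal genes were all negative with a median of -0.82, and 4 had an unadjusted p under 0.05, among them Gad1 (-1.46) and Gad2 (-2.04), the enzymes that make the inhibitory transmitter GABA. Their median was -0.55 without vorinostat replicate 4, the vorinostat library with the most neuron signal, and -0.02 with the covariate that is their own mean. Interneuron markers had a median of -1.46, with 9 of 16 at an unadjusted p under 0.05, among them the homeobox genes Dlx5 (-2.23) and Dlx2 (-1.58), where the background below the sum is 4.0%. Neuropeptide and secretory granule genes had a median of -0.86, with 8 of 18, among them Nts (-2.89) and Tac1 (-2.67), which encode the precursors of neurotensin and substance P. Markers of cortical excitatory neurons had a median of -0.58 and 0 of 14 below at that p. With the neuron covariate the interneuron median was -0.73 with 2 genes below at that p, the neuropeptide median -0.38 with 4 (background 2.50% in that run), and the cortical median 0.04 with 9 of 14 positive. The lists share members and are not separate evidence. Gad1 and Gad2 are in the pan-neuronal list, the interneuron list and the covariate. Penk, Pdyn and Tac1 are striatal and neuropeptide genes, and Sst and Npy interneuron and neuropeptide genes. Among interneuron markers Sst (-1.19) and Lhx6 (-1.64) reached that p without the covariate. Pvalb (-0.81), Vip (-1.01), Calb2 (-1.01) and Cck (-0.25) did not. The synaptic gene Snap25 had an interaction of -0.80 (SE 0.58) and the striatal phosphoprotein gene Ppp1r1b -2.25 (SE 0.66), with adjusted p of 0.425 and 0.260 in limma's test.

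Other resident brain cells gave smaller values. Of 13 astrocyte markers 9 were negative, with a median of -0.67 and 4 at an unadjusted p under 0.05 below the sum (background 4.0%), including Mlc1 (-0.98) and the chaperone gene Clu (-0.67), while the astrocyte filament gene Gfap had 0.19 (SE 0.40). Of 13 myelin genes 9 were negative, with a median of -0.51, and Cldn11, a tight junction protein of myelin, had 0.79. With the neuron covariate these medians were -0.14 and 0.34, and 0 of the astrocyte markers reached that p. Endothelial markers had a median of -0.01 and 0 of 14 at an unadjusted p under 0.05 in either direction.

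With TPM as deposited, cell cycle genes lay above the sum. All 24 mitosis genes and all 23 DNA replication genes had a positive interaction, with medians of 0.89 and 0.87. The medians were 0.71 and 0.68 with median-of-ratios scaling and -0.15 and 0.10 with the neuron covariate. An unadjusted p under 0.05 was reached by 2 and 5 of them, where the background above the sum is 12.4%, and 0 passed the adjusted threshold. The members of smallest p were Psrc1 (1.19) and Nek2 (1.22) of the spindle and centrosome, and Ccne1, Ccne2 (0.63), the flap endonuclease gene Fen1 (0.87) and the DNA ligase gene Lig1 (0.92). The median anti-PD1 difference of the mitosis genes was -1.49 without vorinostat and -0.59 with it.

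These values moved with single libraries. With 1 library left out, the mitosis median ran from 0.58 to 1.47, the DNA replication median from 0.63 to 1.15 and Mki67 from 0.41 to 1.52. Combination replicate 2 lay against the positive direction. Without combination replicate 2 the mitosis median was 1.47 and the interaction of the proliferation marker Mki67 was 1.52, against 0.80 (SE 0.90) with it. Mki67 was at 67.6 to 113 TPM in controls, 36.9, 13.3, 42.3 and 30.7 with anti-PD1, 42.4, 101, 122 and 51.1 with vorinostat, and 62.1, 8.19, 90.1 and 51.3 with the combination. The anti-PD1 libraries lay below every control, and the combination libraries ran from below every other library to inside the control range. Its adjusted p was 0.603 in limma's test, with 3 of 4 combination libraries above the sum.

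The glioma lineage list gave no direction that held across the alternatives. With TPM as deposited its 17 members had a median of 0.03, with 10 positive and 7 negative and 0 at an unadjusted p under 0.05. The oligodendrocyte lineage factor Olig2 had an interaction of 0.28 (SE 0.74) and the PDGF receptor gene Pdgfra 0.14 (SE 0.92), with adjusted p of 0.842 and 0.936 in limma's test, and 3 of 4 combination libraries above the sum in each. The intervals, -1.32 to 1.87 and -1.83 to 2.12, allow large departures in either direction. Without combination replicate 2, the library with little Olig2, the estimates were 0.74 and 0.80 and the median of the list 0.43. Without anti-PD1 replicate 2 they were -0.12, -0.35 and -0.18. With the neuron covariate both estimates were negative, at -0.93 and -1.26, and the list had a median of -0.92 with 15 of 17 negative. In that run 4 members had an unadjusted p under 0.05 below the sum, where the background is 2.50%. Pdgfra was at -0.06 and the list median at -0.18 with median-of-ratios scaling.

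Antigen presentation genes gave medians below the 0.18 of all genes. The 20 MHC class I presentation genes, which show peptides to CD8 T cells, had a median interaction of -0.13, with 14 negative and 6 positive. The median was -0.29 with median-of-ratios scaling and -0.34 with voom, with 17 negative in each, where the median of all genes was 0.01. It was -0.14 with the neuron covariate. Of these genes 1 in each direction had an unadjusted p under 0.05 (background 12.4% above and 4.0% below). Their median anti-PD1 difference was 0.68 without vorinostat and 0.55 with it. H2-K1, a class I heavy chain, was at 33.0, 74.6 and 65.3 TPM in controls, 69.8, 162, 146 and 250 with anti-PD1, 52.1, 60.0, 50.5 and 84.2 with vorinostat, and 102, 134, 215 and 109 with the combination. All combination libraries lay above every vorinostat library and every control. Its interaction was -0.24 (95% interval -1.40 to 0.93, adjusted p = 0.809 in limma's test) with 3 of 4 combination libraries below the sum.

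H2-D1, another class I heavy chain, had -0.19 (-1.20 to 0.82), with an anti-PD1 difference of 1.37 without vorinostat and 1.17 with it. The class I members of smallest p were the nonclassical gene H2-T22 (-0.30), the proteasome activator gene Psme2 (0.47) and the peptide-trimming gene Erap1 (0.43). The 10 class II genes tested had a median of -0.01, and of -0.18 with median-of-ratios scaling. Cd74, the class II invariant chain, had -0.89 (-2.84 to 1.06), with 33.2 TPM in combination replicate 4 against 135 to 191 in the other 3. The intervals of H2-K1, H2-D1 and Cd74 each reach below -1, so the values do not establish additivity.

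T cell genes were at low TPM in every group, on a scale that divides reads by genomic span. The 16 T cell markers summed to 6.70 to 9.36 TPM in controls, 10.8 to 24.1 with anti-PD1, 4.73 to 11.1 with vorinostat and 13.3 to 23.7 with the combination, and 6 passed the low-value filter. Because the others fell under it, no summary over the 6 stands for T cells as a whole. Cd8a, the CD8 coreceptor of killer T cells, was at 0, 0 and 0.254 TPM in controls, 0.856, 0.943, 1.20 and 2.14 with anti-PD1, 0.275, 0.152, 0.0727 and 0.515 with vorinostat, and 0.668, 2.77, 2.86 and 0.567 with the combination. Both antibody-treated groups lay above both others, and its interaction was -0.05 (-0.98 to 0.88), with 2 combination libraries on each side of the sum. At so few reads the estimate depended on the method: it kept its sign in 15 of 22 settings and was -2.94 with voom on the recovered reads and 0.13 with the neuron covariate.

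Gzmb, a protease of killer cells, was at 0, 0 and 0.0609 TPM in controls and at 0, 0.116, 0 and 0 with vorinostat. It was at 1.22, 0.425, 1.57 and 1.10 with anti-PD1 and at 0.970, 1.98, 1.24 and 0.604 with the combination. Its anti-PD1 difference was 1.00 without vorinostat and 1.06 with it, and the interaction was 0.07 (95% interval -0.57 to 0.70, adjusted p = 0.913 in limma's test). The chemokine gene Ccl5 had 0.39 and the granule gene Nkg7 0.43, and none of the 12 cytotoxic lymphocyte genes, of which 4 were tested, reached an unadjusted p under 0.05.

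Cd4, the coreceptor of helper T cells, was at 0.802, 0.718 and 1.04 TPM in controls, 3.27, 8.52, 2.86 and 6.06 with anti-PD1, 2.82, 0.899, 1.05 and 1.18 with vorinostat, and 4.07, 2.81, 1.73 and 0.297 with the combination. Its interaction was -1.37 (95% interval -2.61 to -0.13), all 4 combination libraries were below the sum, and the adjusted p was 0.285 in limma's test. The difference between the interactions of Cd4 and Cd8a was not tested. The estimate was -2.43 with voom, -0.99 without combination replicate 4 and -0.91 with the neuron covariate.

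Checkpoint and interferon genes gave no call. Pdcd1, which encodes the PD-1 receptor itself, had 0.34 (-0.26 to 0.94), and Cd274, which encodes its ligand PD-L1, had 0.02 (-0.75 to 0.80). Of 26 interferon response genes 21 were positive with a median of 0.08, below the median of all genes, and -0.07 with median-of-ratios scaling. The 20 chemokines tested had a median of 0.28, and 0.12 with median-of-ratios scaling. An unadjusted p under 0.05 was reached by 1 above the sum (background 12.4%) and 1 below (background 4.0%). These were Ccl3, a macrophage chemokine, at 1.79 and Cx3cl1, a neuronal chemokine, at -0.93. Cxcl11, an interferon-induced T cell attractant, had 0.72 with 0.894, 2.75, 4.13 and 1.31 TPM in the combination against 0.719 to 1.43 with anti-PD1 and 0.121 to 0.373 with vorinostat.

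Microglia are the brain's resident macrophages, and in disease they take on a state marked by Spp1, Cst7 and lysosomal genes. Of 16 genes of that state 12 had a positive interaction, with a median of 0.58, and 6 had an unadjusted p under 0.05 above the sum, where the background is 12.4%. With the neuron covariate the median was 0.25 with 2 at that p (background 7.26%), and with median-of-ratios scaling 0.38 with 3 (background 5.40%). Spp1, which encodes osteopontin, was at 148, 279 and 138 TPM in controls, 34.9, 33.3, 80.1 and 22.3 with anti-PD1, 104, 107, 259 and 80.9 with vorinostat, and 139, 139, 206 and 336 with the combination. The anti-PD1 libraries lay below all others and the combination libraries lay in or above the control range. Its interaction was 2.82 (SE 0.64, 95% interval 1.44 to 4.21, adjusted p = 0.228 in limma's test), positive in all 4 combination libraries, and 1.94 with the neuron covariate. Spp1 is not specific to microglia, and the cell that expressed it cannot be told apart in these samples.

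Other members of that state with small p were the growth factor gene Csf1 (0.74), the cystatin gene Cst7 (1.42) and the protease gene Ctsb (0.35). Homeostatic microglia genes, by contrast, had a median of -0.05 with 5 of 13 positive. The 8 myeloid inhibitory receptors tested had a median of -0.20 with 5 negative, and -0.33 with median-of-ratios scaling. Of them 1, Lilrb4a, had an unadjusted p under 0.05 above the sum (background 12.4%). Lilrb4a was at 4.52 to 8.83 TPM in controls, 5.76 to 11.2 with anti-PD1, 4.94 to 8.46 with vorinostat and 12.4 to 17.7 with the combination. The combination libraries lay above all others, and the interaction was 0.82 (95% interval 0.13 to 1.52, adjusted p = 0.271 in limma's test).

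The targets of vorinostat and the genes that usually answer to it did not stand out. Of 11 histone deacetylase genes tested 6 were positive, with a median of 0.03 that was -0.17 with median-of-ratios scaling. Hdac1, Hdac2 and Hdac3, the class I enzymes, had 0.86 (SE 0.41), 0.72 (SE 0.31) and 0.30 (SE 0.14), with adjusted p from 0.286 to 0.307 in limma's test and all 4 combination libraries above the sum in each. These estimates were 0.67, 0.52 and 0.10 with median-of-ratios scaling and 0.19, 0.19 and 0.17 with the neuron covariate. Of 18 genes known to respond to deacetylase inhibitors 13 were positive with a median of 0.39. An unadjusted p under 0.05 was reached by 2 above the sum (background 12.4%) and 1 below (background 4.0%). H1f0, a linker histone, had 0.90 (SE 0.32), and the cell cycle inhibitor Cdkn1a had 0.52 (SE 0.74), which turned to -0.39 with the neuron covariate.

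Clustered histone genes had a median of 0.59 with 22 of 29 positive and 6 at an unadjusted p under 0.05 above the sum (background 12.4%), led by H3c14 (2.29), and a median of 0.19 with 1 at that p under the neuron covariate. H3c14 was at 0.709 TPM in anti-PD1 replicate 2, the library with the most neuron signal, against 6.57 to 13.7 in the other 3. All 34 cytosolic ribosomal protein genes were positive with a median of 0.54, and 1 reached an unadjusted p under 0.05 above the sum (background 12.4%). Their median was 0.04 with the neuron covariate, with 20 of 34 positive. Among heat shock chaperones 13 of 14 were positive with a median of 0.50 and a highest value of 1.69. The smallest p were in the mitochondrial chaperonin genes Hspd1 (0.87) and Hspe1 (0.81). Of 14 p53 targets 11 were positive with a median of 0.42, with the smallest p in Phlda3 (1.31) and the death gene Pmaip1 (0.94). The median of the p53 targets was 0.21 with median-of-ratios scaling and 0.02, with 7 of 14 positive, under the neuron covariate.

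Fibroblast matrix genes had a median of 0.84 with 16 of 18 positive and 6 at an unadjusted p under 0.05 above the sum (background 12.4%). With the neuron covariate the median was 0.37 with 2 at that p (background 7.26%). Among the 6 were Dcn (0.97), Col6a3 (0.93) and Fbln1 (0.48), while Col6a1, another collagen chain, went the other way at -1.40. The injected DF-1 cells are fibroblasts of another species, and their share of the reads was not analysed here. The blood lists were the noisiest. Haemoglobin genes had a median of -2.30 and neutrophil genes one of -1.79, and 0 of the 4 haemoglobin genes tested and none of the 8 neutrophil genes tested reached an unadjusted p under 0.05 below the sum. The medians were -0.91 and -0.28 with the neuron covariate. The haemoglobin median was -1.23 without control replicate 2, and the neutrophil median -1.01 without anti-PD1 replicate 1. Haemoglobin and other erythrocyte genes summed to 555 to 6427 TPM in controls and 1662 to 33107 with anti-PD1, so blood content varied widely within groups, and its part in these values was not tested.

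**Figure D5:**
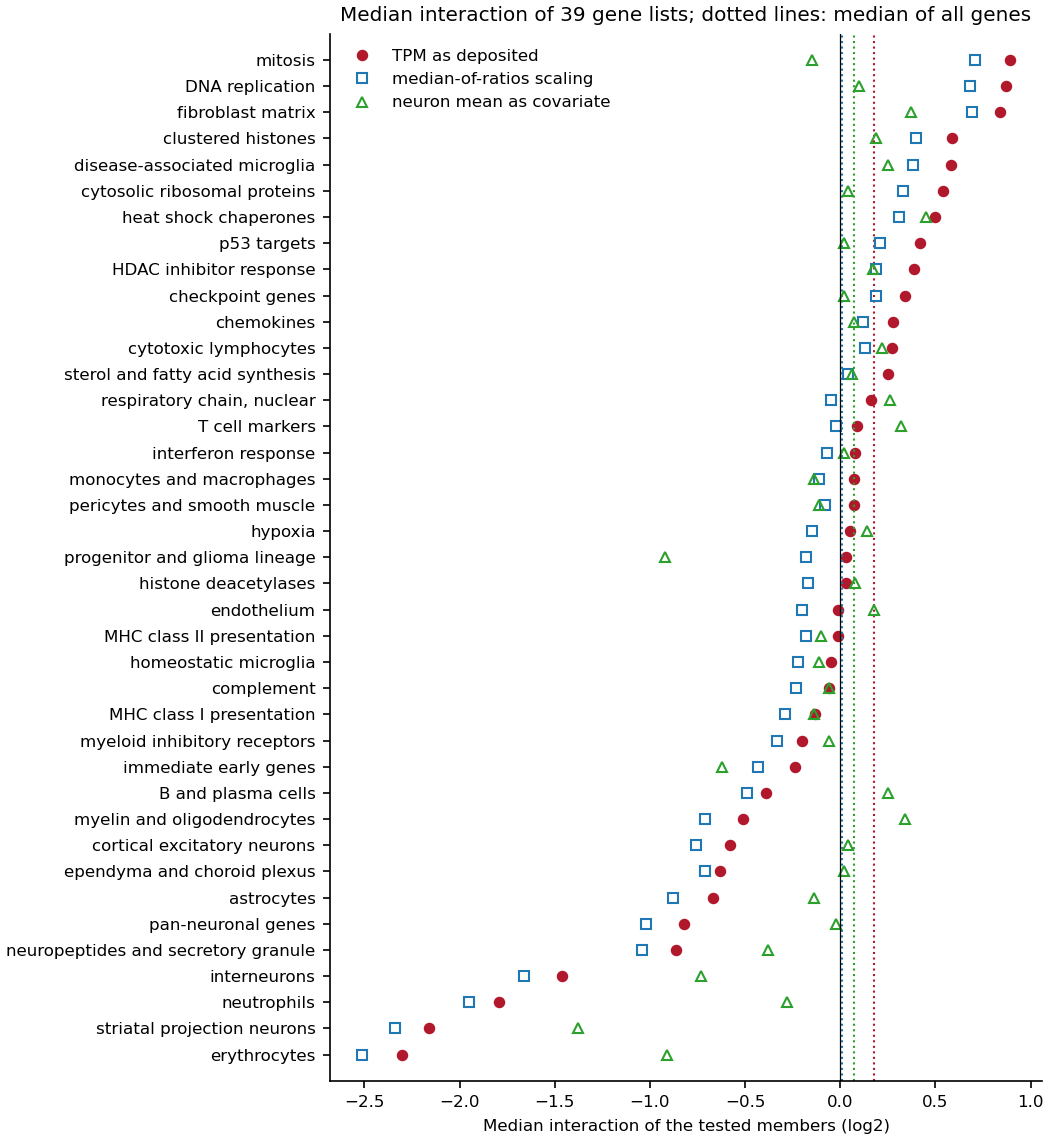
Median interaction in log2 units of the tested members of 39 gene lists (y), for the TPM as deposited, with median-of-ratios scaling and with the pan-neuronal mean as a covariate, and dotted lines at the median of all genes under each. With TPM as deposited erythrocytes (-2.30), striatal projection neurons (-2.16) and neutrophils (-1.79) lie lowest and mitosis (0.89), DNA replication (0.87) and fibroblast matrix (0.84) highest, and with the covariate mitosis moves from 0.89 to -0.15 while striatal projection neurons are at -1.38.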

How the data were processed

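RNA was sequenced from 15 tumour samples. Per the labels' protocols, libraries were made with the NEBNext Ultra RNA kit, which does not mark strand. The authors deposited TPM per gene symbol. FastQC, HISAT2, StringTie and DESeq2 and build mm10 are named in the submitters' processing notes, with versions and settings not given in the sources used here. The deposited TPM columns are labelled as adjusted, and the adjustment is not described there.

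Levels were log2(TPM + 1), and 19390 of 38172 symbols, those reaching 1 TPM in 3 or more libraries, were kept. Limma 3.58.1 (R 4.3.3) fitted 1 mean per group with a trended variance, 11 residual degrees of freedom and Benjamini-Hochberg adjustment over all genes kept, with calls at 0.05. All intervals are 95%. Whole reads were recovered for 100% of symbols within 0.001 reads from gene spans (GENCODE vM21) or implied lengths, and serve depth and a voom alternative only; intervals from counts were not used. The fit was tested on simulated data in which genes varied independently of each other. It called 27 of 100 interactions set to a size of 1 and 75 of 100 set to 2, with 6 calls among unchanged genes. These shares may differ in the real samples, where genes vary together.

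Members and gene lists were chosen with earlier results of these data known. Genes named were those of smallest p with a mean of at least 5 TPM (8 per direction where fewer than 5 passed), excluding gene models, up to 4 members of smallest p per list, and a set of names. Lists are described by counts and medians. Alternatives were a pseudocount of 0.1, no low-value filter, a mean of at least 5 TPM, median-of-ratios scaling, leaving out the 10 most abundant symbols, voom, a replicate block, a neuron covariate and leaving out each library.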

Additional observations from a re-analysis of the deposited data

Results flagged for a closer look

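Of 231 groups of 4 libraries examined, over named genes and list means, 15 held 1 library farther from the others than Dixon's criterion allows at the 95% level; chance gives about 1 in 20. The departure of 2700046G09Rik (1.14) from the sum is listed because it passed limma's test of the interaction. That test is itself the comparison of its anti-PD1 difference with and without vorinostat, so this is no further evidence. The call was lost with median-of-ratios scaling (adjusted p = 0.186 in limma's test). Gm38061 (2.58) passed the same test, but its value is set by a sum that lies below the lowest possible level, so it does not show such a difference. The only anti-PD1 and vorinostat libraries with a Gm38061 read were anti-PD1 replicate 3 (0.233 TPM) and vorinostat replicate 4 (0.203 TPM).

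Combination replicate 2 stood apart in 5 measures. It held 238 TPM of Olig2 (others 787 to 965) and 52.6 of Pdgfra (289 to 368). Its mean log2(TPM + 1) was 5.77 for the glioma lineage list (7.09 to 7.30), 2.43 for checkpoint genes (2.80 to 2.87) and 7.28 for nuclear genes of the respiratory chain (7.07 to 7.09).

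Vorinostat replicate 4 was high in erythrocyte genes (11.76, others 9.46 to 9.77) and neutrophil genes (3.65, others 1.68 to 1.92), and vorinostat replicate 3 was low in astrocyte genes (6.03, others 6.73 to 6.79) and myelin genes (4.17, others 5.29 to 5.38). Vorinostat replicate 2 was the only one of its group with Gzmb reads (0.116 TPM). Anti-PD1 replicate 2 had the highest striatal neuron mean (5.73, others 4.79 to 4.92) and anti-PD1 replicate 1 the lowest cytotoxic lymphocyte mean (1.22, others 1.73 to 1.84). Combination replicate 3 was high in Wnt5a (8.68 TPM, others 6.39 to 6.64).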

How the results depend on the processing

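The count of 2 calls was 0 with a pseudocount of 0.1 or a mean of at least 5 TPM, 9 of 38172 symbols without the low-value filter, and 1 with median-of-ratios scaling, without the 10 most abundant symbols, with voom, with the replicate block and with the neuron covariate. Leaving out 1 library gave 0 to 5 calls: 0 without any one of the 3 controls, 3 without anti-PD1 replicate 2, 5 without vorinostat replicate 3, and 1 without any other. The median interaction of 0.18 was 0.22 with a pseudocount of 0.1, 0.03 without the filter, 0.23 at a mean of at least 5 TPM, 0.01 with median-of-ratios scaling and with voom, 0.03 without the 10 most abundant symbols, 0.07 with the neuron covariate, and 0.12 to 0.22 with 1 library left out.

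2700046G09Rik kept its direction but not its call at a pseudocount of 0.1 (1.30), a mean of at least 5 TPM (1.14), median-of-ratios scaling (0.96), without the 10 most abundant symbols (1.03), with voom (1.11), the replicate block (1.12) and the neuron covariate (1.13). With 1 library left out it was 1.06 to 1.20, called only without anti-PD1 replicate 2 or vorinostat replicate 3. Gm38061 was 5.00 with a pseudocount of 0.1 (not called), 2.88 without the 10 most abundant symbols, 4.73 with voom and 2.55 to 2.65 with 1 library left out; it fell under the filter without any one control or at a mean of at least 5 TPM. The cause was not tested, except that fewer libraries leave fewer degrees of freedom.

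Same-numbered libraries of the anti-PD1 and combination groups deviated together (correlations 0.20 to 0.64), but those of vorinostat and anti-PD1 ran from -0.28 to 0.55, so the numbers are not taken to pair the samples. With the replicate block 1 gene was called and the median interaction was 0.18. In that run 10 of 34 ribosomal protein genes and 14 of 29 clustered histone genes reached an unadjusted p under 0.05 above the sum (background 16.1%). On the linear TPM scale 97.9% of genes kept the sign of their interaction. With 3 or 4 libraries per group the median SE was 0.26, and Cd8a and Gzmb rested on 0 to 40 reads in the control and vorinostat libraries.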

Other observations

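The 16 hypoxia genes tested had a median interaction of 0.05 and the 14 complement genes one of -0.06, with 0 at an unadjusted p under 0.05 in each. Sterol and fatty acid synthesis genes had a median of 0.25, with 15 of 20 positive and 0 at that p. Nuclear genes of the respiratory chain had a median of 0.16, close to the 0.18 of all genes. The smallest p were in Uqcrb (0.34) and Ndufv2 (0.29) of complexes III and I. Of these nuclear genes 5 lay above (background 12.4%) and 1 below (background 4.0%) at an unadjusted p under 0.05. With median-of-ratios scaling their median was -0.05, with 18 of 29 negative, 0 above (background 5.40%) and 1 below (background 8.42%) at that p. With the neuron covariate their median was 0.26 with 16 above (background 7.26%).

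Immediate early genes, which neurons switch on with activity, had a median of -0.24 with 13 of 19 negative, and a median of -0.62 with the neuron covariate. Egr4 (-1.70) and Egr3 (-1.50) had the smallest p and Fosb (-1.79) the lowest value. Markers of ependyma and choroid plexus had a median of -0.63 over 9 tested genes, led by the ciliary gene Ccdc153 (-2.16), and 0.02 with the covariate. Pericyte and smooth muscle markers had a median of 0.07 over 10 genes, with Vtn, which encodes vitronectin, at -1.07. B and plasma cell markers had a median of -0.39 over 7 genes, with 5 negative and 2 positive, and a median of 0.25 with the neuron covariate. The light chain gene Igkc was at -1.32 (95% interval -4.47 to 1.84). Sdc1 went the other way at 1.68, as the 1 member with an unadjusted p under 0.05 above the sum (background 12.4%). By gene class, the median interaction was 0.31 for 2694 pseudogenes and 0.18 for 12727 protein-coding genes, and 0.16 and 0.00 with median-of-ratios scaling.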
